A study of Mus musculus with 6 samples.

Results

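The Hox genes of the mouse lie in 4 clusters, Hoxa, Hoxb, Hoxc and Hoxd, and encode homeodomain transcription factors. All protein-coding genes whose symbol is one of these cluster names followed by a number were taken, which gave 39 of the 21887 protein-coding genes on chromosomes 1 to 19, X and Y. Accessibility at these clusters was examined in ATAC-seq peak lists of 6 libraries. In ATAC-seq the Tn5 transposase inserts sequencing adapters into open chromatin, and a peak is a stretch where inserted fragments pile up above the local background. A library held 50000 cells of Pnd 5 (postnatal day 5) mouse testes, which the labels call spermatogonia, the germ cells that divide by mitosis before meiosis begins. S7KO libraries (3, from Sirt7-/- mice) lacked the histone deacetylase SIRT7 in the whole animal and WT libraries (3) came from wild-type mice, both of the same inbred background per the study's methods. The cells were enriched by differential plating, which leaves adherent somatic cells behind, and their purity was followed by flow cytometry for PLZF. Libraries are named by genotype and replicate number (1, 2 and 4), and values per library are given in that order. These are the numbers of the titles. A second label numbers the same libraries 2, 3 and 4 in either genotype, in the same order, so that both sets join the same S7KO and WT libraries. The study calls them independent biological replicates, but the labels tie no library to an animal, so the tests below measure the spread between these libraries, also where Hox is set against the rest of the genome.

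Within a cluster the Hox genes stand in the order in which they are expressed along the body axis, with low paralogue numbers used toward the head and high numbers toward the tail. Polycomb complexes keep the clusters repressed where they are not used and Trithorax proteins keep them active where they are. Germ cells are known to carry many developmental gene promoters in a CG-rich, poorly methylated and Polycomb-bound state, Hox genes among them. Accessibility of a promoter is not a measure of its transcription.

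The Hoxa cluster was taken from 20 kb outside its first to 20 kb outside its last gene, at chr6:52135367-52280880 (mm10, as all coordinates here), and held 11 genes in 145.5 kb. The Hoxb window (chr11:96174316-96388254) held 10 genes in 213.9 kb. The Hoxc window (chr15:102901131-103056856) held 9 genes in 155.7 kb. The Hoxd window (chr2:74648225-74785142) held 9 genes in 136.9 kb. Together they measured 652.1 kb, 0.024% of the 2721.8 Mb that the lists span.

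Promoter sequences of 22 of the 39 genes were held in the RefSeq promoter table of GRCm38.p6, the build of mm10, as 24 stretches of 300 bp from 250 bp before to 50 bp after a transcript start. The following 6 span the range from the most CG-rich Hox promoter, which was covered by a peak in every library, to promoters without a peak. Each is written 5′ to 3′ on the strand of its gene, with the CG dinucleotides in capitals. The Hoxa13 and Hoxd1 promoters were covered over all 300 bp in all 6 libraries, that of Hoxa6 met a peak in 3 libraries, and those of Hoxa9 and Hoxd4 met none. That of Hoxc4 starts far inside the RefSeq gene span and is discussed with that gene.
Hoxa13, chr6:52260831-52261130, minus strand: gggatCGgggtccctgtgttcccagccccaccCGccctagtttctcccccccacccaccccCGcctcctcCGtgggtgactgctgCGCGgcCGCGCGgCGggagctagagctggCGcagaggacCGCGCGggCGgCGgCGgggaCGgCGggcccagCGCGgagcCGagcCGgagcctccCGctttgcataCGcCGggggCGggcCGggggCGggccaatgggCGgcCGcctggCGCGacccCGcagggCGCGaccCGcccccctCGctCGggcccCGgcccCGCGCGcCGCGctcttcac
Hoxd1, chr2:74762730-74763029, plus strand: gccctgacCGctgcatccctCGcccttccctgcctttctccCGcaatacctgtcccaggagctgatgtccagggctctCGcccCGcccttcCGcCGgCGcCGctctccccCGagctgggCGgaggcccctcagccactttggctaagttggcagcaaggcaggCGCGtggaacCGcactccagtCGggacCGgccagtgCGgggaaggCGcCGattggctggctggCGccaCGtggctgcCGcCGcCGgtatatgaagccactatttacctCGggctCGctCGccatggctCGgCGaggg
Hoxa6, chr6:52208623-52208922, minus strand: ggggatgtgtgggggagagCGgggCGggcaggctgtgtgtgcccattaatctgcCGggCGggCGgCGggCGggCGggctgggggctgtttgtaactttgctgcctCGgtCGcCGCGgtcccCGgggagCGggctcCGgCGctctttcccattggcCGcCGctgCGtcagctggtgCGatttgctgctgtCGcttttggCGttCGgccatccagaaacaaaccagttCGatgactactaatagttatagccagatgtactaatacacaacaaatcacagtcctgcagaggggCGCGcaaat
Hoxc4, chr15:103034145-103034444, plus strand: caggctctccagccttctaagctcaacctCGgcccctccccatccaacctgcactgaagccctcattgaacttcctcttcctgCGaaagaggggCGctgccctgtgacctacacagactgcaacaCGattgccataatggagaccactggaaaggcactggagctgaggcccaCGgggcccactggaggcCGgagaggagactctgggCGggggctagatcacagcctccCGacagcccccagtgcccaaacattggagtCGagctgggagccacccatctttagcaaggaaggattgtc
Hoxa9, chr6:52227321-52227620, minus strand: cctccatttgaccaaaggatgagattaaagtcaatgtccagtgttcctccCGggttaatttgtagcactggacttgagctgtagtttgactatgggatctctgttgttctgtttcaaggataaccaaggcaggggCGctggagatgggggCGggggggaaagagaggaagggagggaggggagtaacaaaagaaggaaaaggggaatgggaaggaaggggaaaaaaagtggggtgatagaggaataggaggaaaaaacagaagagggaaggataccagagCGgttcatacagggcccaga
Hoxd4, chr2:74721728-74722027, plus strand: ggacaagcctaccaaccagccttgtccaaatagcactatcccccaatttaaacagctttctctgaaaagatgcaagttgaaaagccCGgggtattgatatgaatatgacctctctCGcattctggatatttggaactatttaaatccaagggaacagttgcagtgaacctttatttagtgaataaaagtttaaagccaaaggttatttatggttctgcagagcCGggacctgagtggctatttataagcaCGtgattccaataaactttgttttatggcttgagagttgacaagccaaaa

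The libraries held between 105728 and 133663 peaks that covered 81.5 to 107.7 Mb. Read depth is not in the lists, and the background coverage recovered from the fold enrichment and p of narrow peaks, a relative measure of depth, ran from 2.92 in WT replicate 2 to 6.03 in S7KO replicate 4. WT replicate 2 was the shallowest library and stood apart, so the Hox values are also given without it where it decides them. At Sirt7, the targeted gene, peaks covered 1658, 1779 and 1212 bp within 1 kb of the 5′ end in S7KO and 1779, 1795 and 1782 bp in WT, and the deleted part of the gene is not given in the sources used here, so this did not check the labels. Promoters of all 7 spermatogonia markers examined, among them Ddx4 and Zbtb16 (which encodes PLZF), had a peak in all 6 libraries. The same held for all 6 Sertoli cell markers and all 4 peritubular myoid markers, whereas 2 of 5 Leydig cell markers and 1 of 4 blood and endothelium markers were called in all 6, beside 72.3% of all protein-coding promoters. Promoter calls therefore did not separate germ cells from Sertoli or myoid cells, and the lists do not say in which cells of the sample a Hox site was open.

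The Hox clusters were more densely covered by peaks than the genome and than 3 windows of other clustered gene families. Peaks covered 23.4%, 22.1% and 22.4% of the Hox windows in S7KO replicates 1, 2 and 4. In WT replicates 1, 2 and 4 they covered 23.2%, 17.8% and 21.9%. The lowest value belonged to the shallow library, and the other 5 lay close together. The mean was 21.8% ± 2.08 (SD, n = 6), against 3.69% ± 0.361 of the genome. The Hox windows exceeded the genome by 18.1 percentage points ± 1.79 (SD), 5.92 times on average, in 6 of 6 libraries (exact two-sided sign-flip test over libraries, p = 0.031, the smallest it can give, and 0.031 after Benjamini-Hochberg adjustment over 10 comparisons). The Hoxa window had the highest mean (24.5% ± 3.37), followed by Hoxd (23.95% ± 1.93), Hoxc (20.03% ± 1.59) and Hoxb (19.9% ± 1.99, SD, n = 6 each). Hoxa and Hoxd differed by less than the SD of either over the libraries, as did Hoxc and Hoxb, whereas Hoxd lay above Hoxc by more than either SD and in 6 of 6 libraries, a difference that was not tested. The other families were less covered. The 27 keratin genes of chromosome 11, taken with the same margins, had 4.27% of their window in peaks, the 26 keratin genes of chromosome 15 had 7.704%, and the 53 histone genes of chromosome 13 had 7.06%. These windows measured 1077.2, 723.7 and 2259.2 kb, each longer than the 652.1 kb of all Hox windows. Genes of the family stood further apart in them than Hox genes do, so the windows were not alike in gene density. The Hox windows exceeded each of these 3 windows in 6 of 6 libraries (exact sign-flip test, p = 0.031 and adjusted p = 0.031 each).

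**Figure D1:**
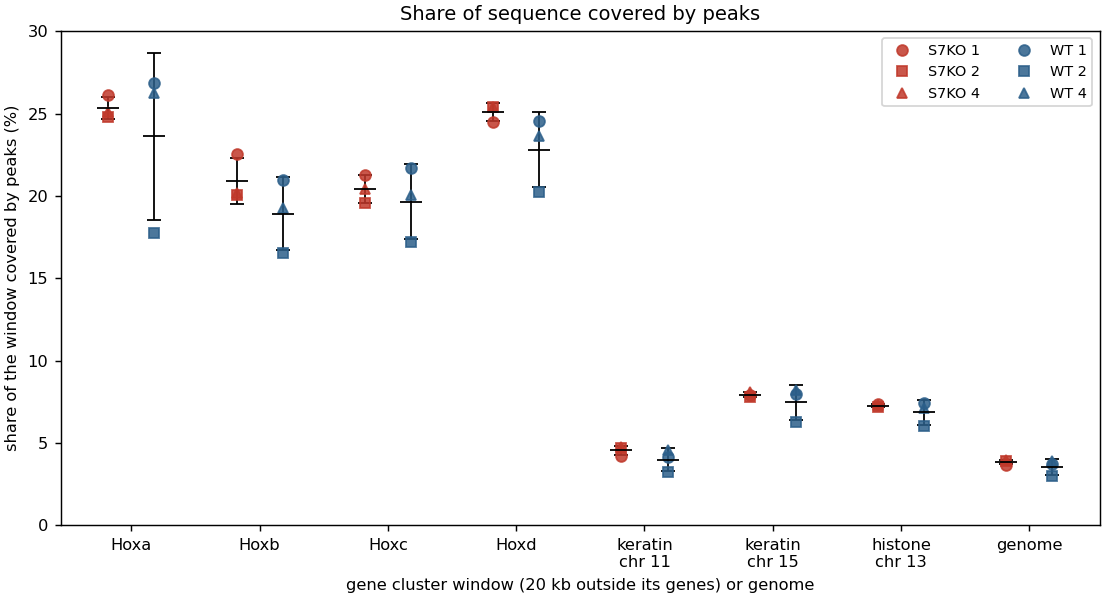
Share of each gene cluster window and of the genome covered by peaks, in percent, for the 3 S7KO and 3 WT libraries, with the mean (long bar) and SD (short bars) per genotype. The Hox points lie between 16.55% and 26.84%, all above the keratin, histone and genome points, and WT replicate 2 (blue square) is the lowest in every Hox window.

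This coverage reached beyond the 1 kb around the 5′ ends of protein-coding genes. Sequence within 1 kb of the 5′ end of any protein-coding gene made up 28.98% to 31.82% of the covered length in the Hox windows, against 15.6% to 19.2% over the genome. Outside such sequence peaks still covered 17.4% of the Hox windows and 3.12% of the genome, a ratio of 5.59 (6 of 6 libraries, exact sign-flip test, p = 0.031, adjusted 0.031). Only the outer 5′ end of each protein-coding gene was set aside in this way. Inner starts, such as those of Hoxc4 and Hoxd10, and starts of RNA genes away from these ends therefore stay in the 17.4%. There were 18.5 peaks per 100 kb of Hox window against 4.53 over the genome (6 of 6 libraries, exact sign-flip test, p = 0.031, adjusted 0.031). The excess over the genome depended on the margins, with 20.97 percentage points without margins and 11.4 with 100 kb. Hox genes are packed more densely than most genes, so the density of peaks per window also holds the density of genes.

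**Figure D2:**
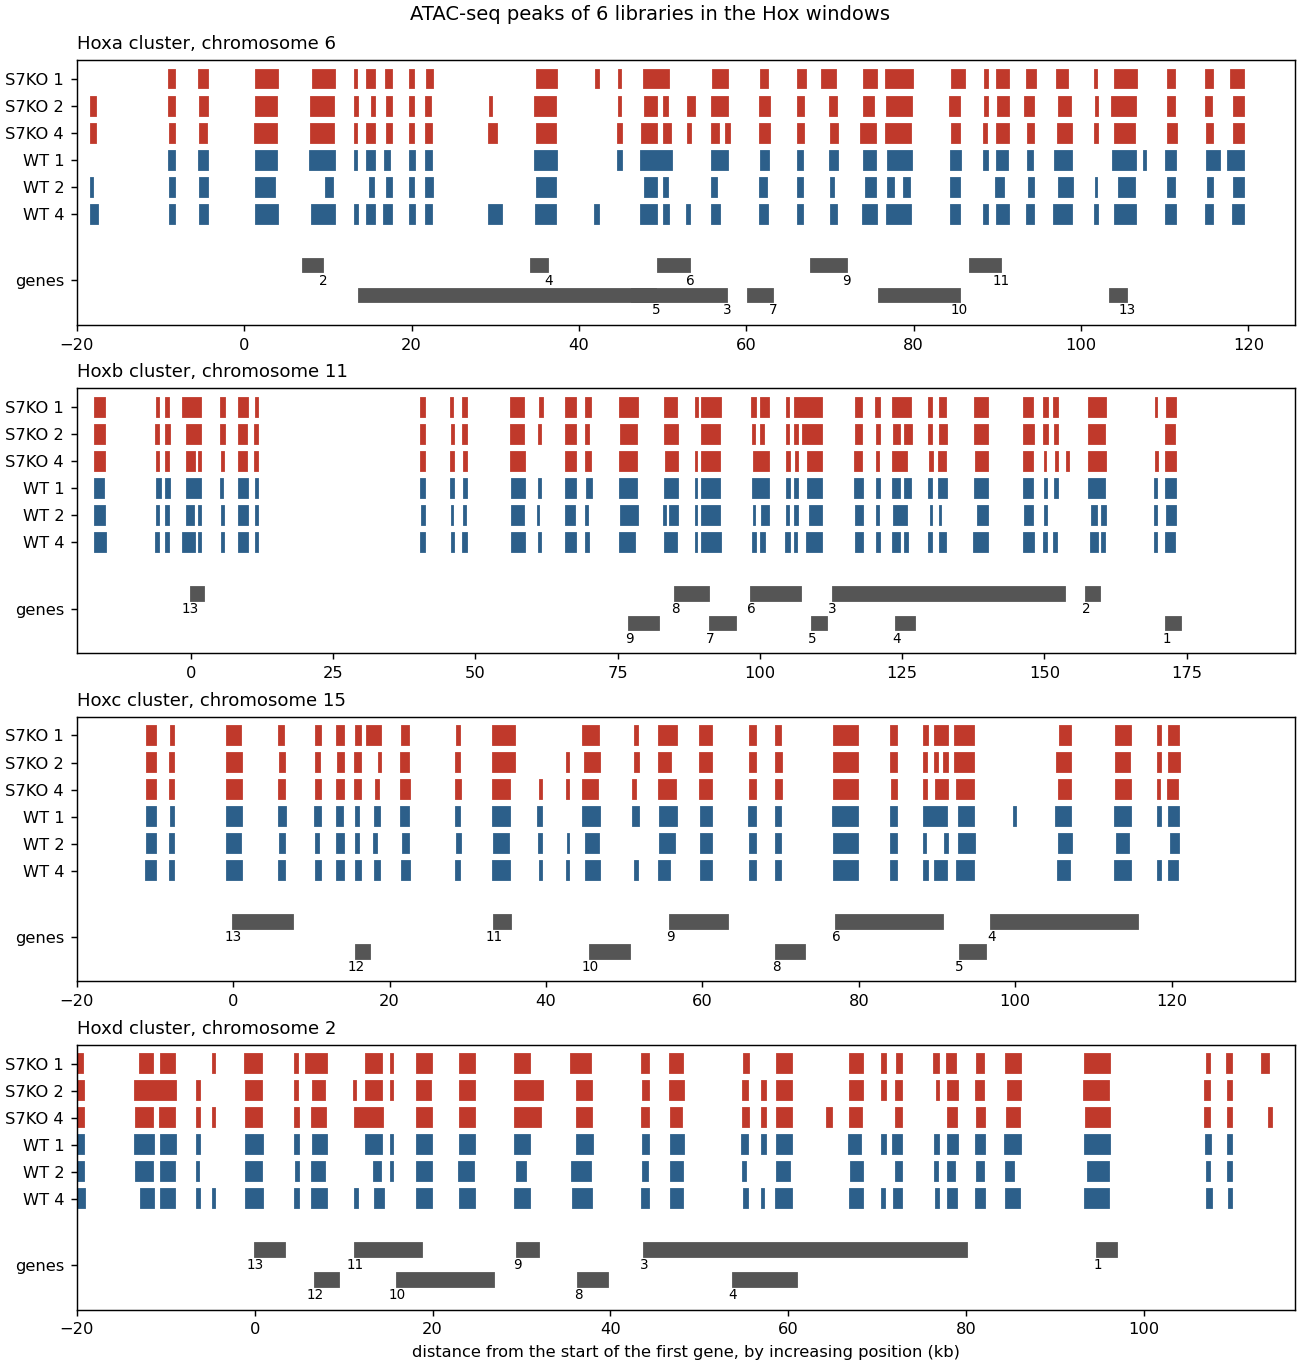
Peaks of the 6 libraries (S7KO red, WT blue) in the 4 Hox windows, by distance in kb from the start of the first gene, above the spans of Hox genes, each marked by its paralogue number. Most peaks stand at the same place in all 6 libraries, and the stretch between Hoxb13 and Hoxb9 has a gap with no peak in any library.

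Hox peaks were wide and of modest enrichment. Their median widths were 1065, 863.5 and 913 bp for S7KO and 1098, 771 and 898 bp for WT. The replicate 1 libraries had the widest Hox peaks in both genotypes. Over all peaks the median width was 614 to 681 bp, and the Hox median exceeded it by 284.8 bp ± 103.8 (SD) in 6 of 6 libraries (exact sign-flip test, p = 0.031, adjusted 0.031). Peaks of at least 2 kb made up 9.402% to 19.5% of the Hox peaks and 3.38% to 4.98% of all peaks. In contrast, the median fold enrichment, the ratio of pileup to local background as the peak caller gave it, was 2.69 to 2.96 for Hox peaks and 3.43 to 3.75 for all peaks. It was lower for Hox peaks in 6 of 6 libraries, with differences of -0.8805 to -0.697 (exact sign-flip test, p = 0.031, adjusted 0.031). Ranked by −log10 q within its own list from the best at 0% to the weakest at 100%, the median Hox peak stood at 52.5% to 64.5%, and in no library did a Hox peak reach the top 10%. The best ranked Hox peak lay in Hoxc, at 10.24% of the list of S7KO replicate 2.

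**Figure D3:**
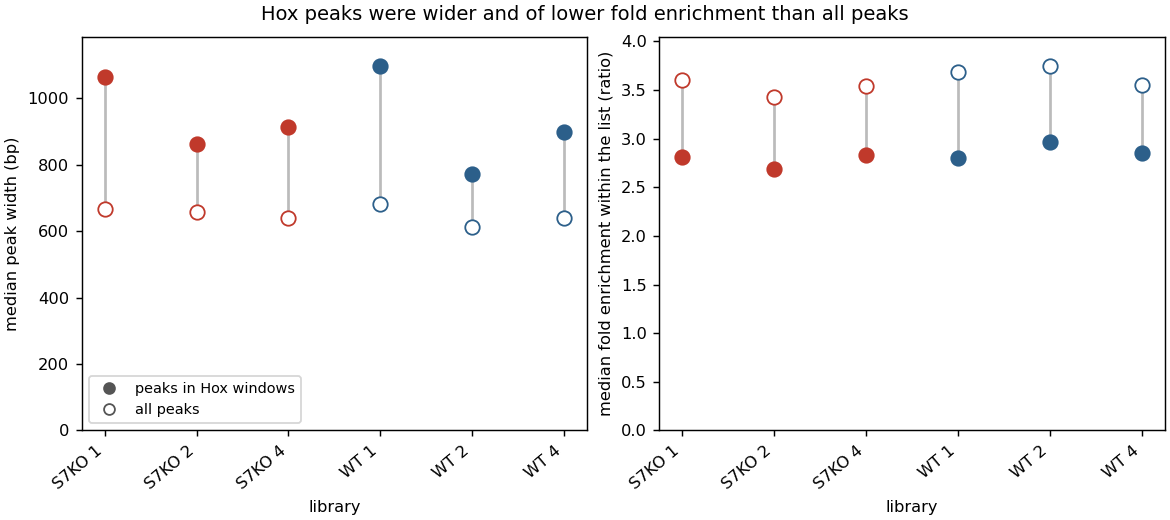
Median peak width in bp (left) and median fold enrichment within a list (right) of the peaks in the Hox windows (filled) and of all peaks (open) in each library. The filled points lie above the open ones for width, 771 to 1098 bp against 614 to 681 bp, and below them for fold enrichment, 2.69 to 2.96 against 3.43 to 3.75.

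Promoters of most Hox genes were accessible in every library. A promoter was taken as the 2001 bp within 1 kb of the 5′ end, the outer end of the RefSeq gene span on its strand, and was called where a peak covered at least 1 bp of it. Of the 39 Hox promoters, 33, 35 and 34 were called in S7KO and 33, 32 and 34 in WT. In all 6 libraries 31 were called (79.5%), beside 72.3% of the 19666 protein-coding genes with a known strand. None of the 6 libraries called 4 of them (10.3%), beside 23.6% of all genes. Peaks filled the whole 2001 bp in all 6 libraries at 3 Hox genes (7.69%), beside 1.29% of all genes. Per library the median length covered at Hox promoters was 1368, 1150 and 1188 bp in S7KO and 1177, 1067 and 1195 bp in WT. It exceeded the median of all genes by 27 to 253 bp in 6 of 6 libraries (mean 86.5 bp ± 84.2, SD, exact sign-flip test, p = 0.031, adjusted 0.031). Over the promoters called in a library alone, the Hox median was above that of all genes in 3 libraries, equal in 1 (WT replicate 2, 1208 bp each) and below in 2 (1182 against 1284 bp in S7KO replicate 2 and 1294 against 1295 bp in WT replicate 1), so the excess also holds the smaller share of Hox promoters without a peak. This excess was 39.4 bp where every library was limited to as many peaks as the smallest list holds (exact sign-flip test, p = 0.25). Read over only 250 bp either side of the 5′ end, the Hox median instead differed from that of all genes by -69.7 bp (exact sign-flip test, p = 0.0625), so the excess depended on the flanks of the start.

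The genes that were covered throughout came from different positions of the clusters. Hoxb7 and Hoxb9, which pattern the thoracic vertebrae and ribs, were covered over all 2001 bp in every library. The same was true of Hoxd1, which acts in sensory neurons that detect pain. The Hoxb7 promoter lay in a single peak of 3090 to 3251 bp that reached into Hoxb8, and that peak stood at 49.7% to 66.41% of its list, so a wide peak was not a highly ranked one. Hoxb9 peaks ranked between 17.4% and 39.65% and Hoxd1 peaks between 27.53% and 36.2%.

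Next came Hoxa4, a gene of the neck vertebrae, covered over 2001, 1964 and 1957 bp in S7KO and 2001, 1931 and 1967 bp in WT. Hoxa13, which is needed for the digits and the genital tubercle, was covered over 2001, 2001 and 1911 bp in S7KO and 2001, 1853 and 2001 bp in WT. Its partner in the same structures, Hoxd13, was covered over 1800, 1771 and 1825 bp in S7KO and 1945, 1781 and 1939 bp in WT. The genotypes overlapped at all 3. All 4 genes of paralogue group 13, the last of each cluster, were called in every library, with means of 1627.8 bp (Hoxb13) to 1961.3 bp (Hoxa13). Hoxb13, which acts in the prostate and the tail, had 2001, 1614 and 1484 bp in S7KO and 1667, 1257 and 1744 bp in WT. Hoxc13, a regulator of hair and nail, was among the most even genes, with 1789, 1749 and 1759 bp in S7KO and 1749 bp in each WT library.

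The 4 promoters without a peak were those of Hoxa9, Hoxb3, Hoxc4 and Hoxd4, and they were 0 bp in every library. Hoxa9 is a regulator of blood stem cells and Hoxb3 and Hoxd4 act in the hindbrain and neck. Each had a peak within 3 kb of its 5′ end, as had all 39 Hox genes in all 6 libraries. The RefSeq span of Hoxb3 reaches over Hoxb4, and the promoter table held no sequence for it. The Hoxc4 transcript in the promoter table starts at position 103034395, inside the span that begins at 103018097, and its 300 bp, shown above, were covered over 300 bp in 5 libraries and 268 bp in WT replicate 2. The absence of a call at Hoxc4 thus belongs to the outer start alone. The table's start for Hoxa9 and Hoxd4 is the outer one, and it was uncovered in all 6 libraries.

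A further 4 promoters were called in some libraries. Hoxa3, needed for the thymus and the pharyngeal arches, had 1066, 1164 and 511 bp in S7KO and 1140, 0 and 124 bp in WT. Its RefSeq span runs over Hoxa4, Hoxa5 and Hoxa6, so this outer start, the only one of Hoxa3 in the promoter table, lies beyond those genes. Hoxa6 had 0, 838 and 371 bp in S7KO and 0, 0 and 370 bp in WT. Both were at 0 in WT replicate 2, and Hoxa6 was at 0 in replicate 1 of either genotype as well. Hoxd10, a gene of the lumbar spinal cord, had 239, 215 and 0 bp in S7KO and 299, 250 and 0 bp in WT. Hoxd11, which with Hoxa11 shapes the forearm and the kidney, had 0, 271 and 1045 bp in S7KO and 0, 0 and 355 bp in WT. Neither gene split by genotype: Hoxd10 lacked a peak in replicate 4 of both, and Hoxd11 lacked one in replicate 1 of both. Inner starts that the promoter table holds for these genes, at 74691891 for Hoxd10 (its only entry) and 74682323 for Hoxd11 (beside the outer one), were covered over all 300 bp in all 6 libraries. The peaks at the outer Hoxa6 start were weak, between 89.54% and 98.33% of their lists.

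Between these extremes, Hoxb2, a gene of the hindbrain, was called in all 6 libraries over 468, 427 and 468 bp in S7KO and 492, 42 and 95 bp in WT. The widest peak that reached its promoter had a mean width of 2264.2 bp, so most of the peak lay outside the window. Hoxa2, which gives the second pharyngeal arch its identity, was covered over all 2001 bp in 5 libraries and 722 bp in WT replicate 2, by peaks near the end of their lists (86.01% to 95.03%). Hoxa5, a gene of lung development, had 2001 bp in replicate 1 of both genotypes and 1157 to 1195 bp in the other 4 libraries. Hoxa10 and Hoxa11, which the reproductive tract requires, had means of 1116.3 and 1287.8 bp. Hoxa7 had 424, 600 and 639 bp in S7KO and 462, 282 and 442 bp in WT.

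The remaining promoters of Hoxb and Hoxc that had a peak in all 6 libraries were mostly covered beyond 1 kb. Hoxb4, known for its effect on blood stem cells, had 1514, 1150 and 1545 bp in S7KO and 1271, 1431 and 1278 bp in WT. Hoxb5 had 2001, 2001 and 1750 bp in S7KO and 1792, 1338 and 1938 bp in WT, from peaks of 65.06% to 85.73% of their lists. Their genotypes overlapped. Hoxb8 had a mean of 1456.2 bp over the 6 libraries, Hoxc9, which marks thoracic motor neurons, 1484 bp, Hoxc5 1336.2 bp and Hoxc6 1285.8 bp. The Hoxb8 value belongs to the outer start. The only Hoxb8 start in the promoter table, at 96281905, was covered over 0 of its 300 bp in all 6 libraries. Hoxc10, a gene of the lumbar spinal cord and hindlimb, had 1901, 1703 and 1902 bp in S7KO and 1916, 1604 and 1548 bp in WT, and Hoxc11 a mean of 1141.2 bp. Shorter lengths were found at Hoxb1, needed for the facial motor neurons, with a mean of 982 bp, at Hoxc12 with 605 bp and at Hoxb6 with 536.7 bp. In Hoxd, Hoxd8 had a mean of 1437.3 bp, Hoxd12 of 1428.7 bp, Hoxd9 of 1228.7 bp and Hoxd3, a gene of the first neck vertebrae, of 739.2 bp. The Hoxd3 peak was the better ranked (24.36% to 32.95%) and the Hoxd12 peak the wider, so length and rank again differed in order. By paralogue number, 8 of 12 genes numbered 1 to 4 were called in all 6 libraries with a median of 703.3 bp over genes, 10 of 11 numbered 5 to 8 with 1336.2 bp, and 13 of 16 numbered 9 to 13 with 1358.2 bp. By cluster, 8 of 11 Hoxa, 9 of 10 Hoxb, 8 of 9 Hoxc and 6 of 9 Hoxd promoters were called in all 6. Both sets of counts are to be read beside the 72.3% of all protein-coding promoters called in all 6. Genes that lie side by side share peaks, so these counts describe the clusters and are not tests. The counts and medians also rest on the outer starts. In the group 1 to 4, Hoxc4 entered at 0 bp although its start in the promoter table was covered in all 6 libraries. The outer starts of Hoxa3 and Hoxb3 lie beyond neighbouring Hox genes. In the group 9 to 13, Hoxd10 and Hoxd11 were likewise scored at outer starts.

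**Figure D4:**
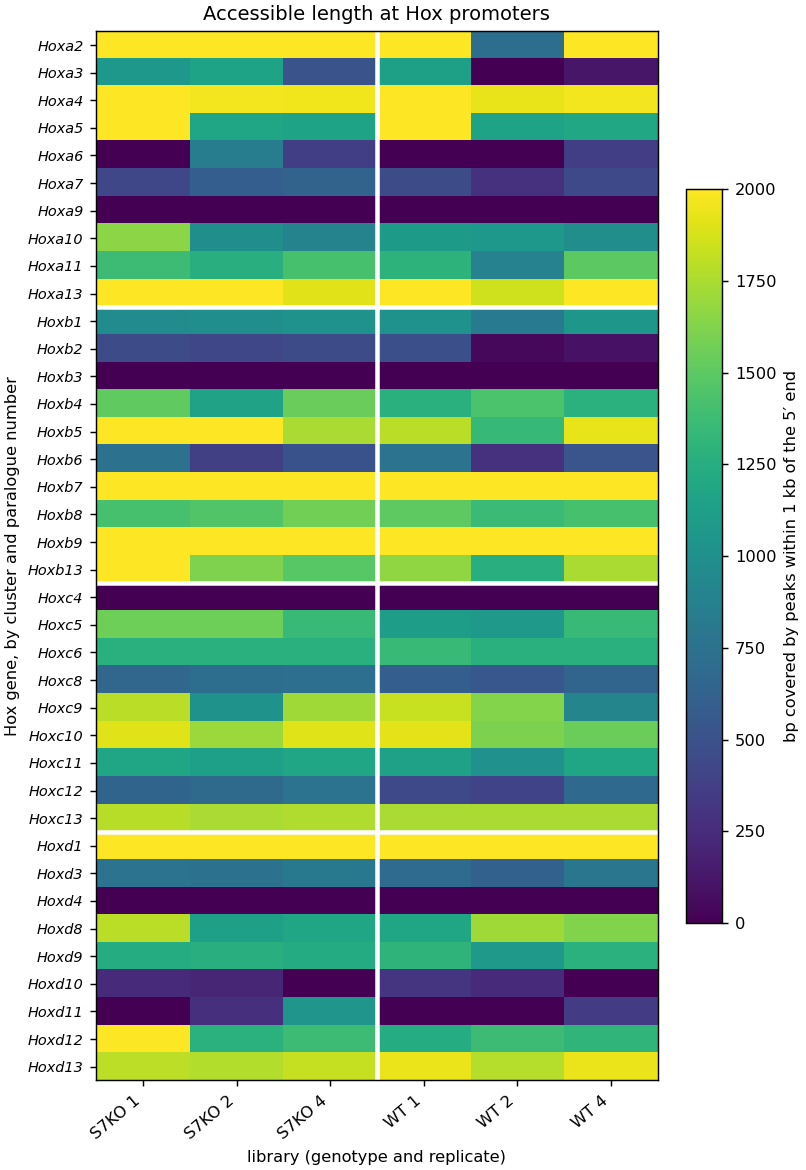
Length covered by peaks within 1 kb of the 5′ end of Hox genes (rows, by cluster and paralogue number) in each library (columns), from 0 bp (dark) to 2001 bp (yellow). Hoxb7, Hoxb9 and Hoxd1 are yellow in all 6 columns, Hoxa9, Hoxb3, Hoxc4 and Hoxd4 are dark in all 6, and no row turns from dark to yellow between the genotypes.

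The CG content of the promoter sequences varied widely among Hox genes. The 24 Hox sequences held a median of 14.5 CG per 300 bp, against 7 over all 32851 sequences of the table on these chromosomes. CG was counted as the letters CG, which read the same on both strands, and at least 1 was found in 94.6% of all sequences. Hoxa13 had 45 CG, a count reached or passed by 1.93% of all sequences. Hoxd13 had 37, Hoxa5 and Hoxd1 had 29, and Hoxa6 had 26. At the low end Hoxa9, Hoxd4 and the outer start of Hoxd11 had 4 each. Of the 24 Hox sequences 15 (62.5%) met a peak in all 6 libraries, beside 52.7% of all sequences. Among Hox sequences with 20 or more CG these were 9 of 11 (81.8%), beside 97.1% of all such sequences. With 10 to 19 CG they were 4 of 6, beside 88% of all, and with 0 to 9 CG they were 2 of 7, beside 21.3% of all. The 2 CG-rich Hox sequences without a peak in every library were Hoxa6, printed above, covered over 0, 300 and 156 bp in S7KO and 0, 0 and 25 bp in WT, and Hoxa3 (20 CG), covered over 115, 213 and 300 bp in S7KO and 189, 0 and 0 bp in WT. Going the other way, the CG-poor sequences of Hoxd8 (6 CG) and Hoxc4 (9 CG) met a peak in all 6 libraries, over means of 257 and 294.7 bp. Hoxa7 (9 CG) and Hoxb8 (13 CG) were at 0 bp of their 300 in all 6 libraries. At Hoxa7 the wider 1 kb window around the same start was called. The Hoxb8 sequence belongs to an inner start, at 96281905, and lies outside the called 1 kb window around the outer start, at 96279401.

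**Figure D5:**
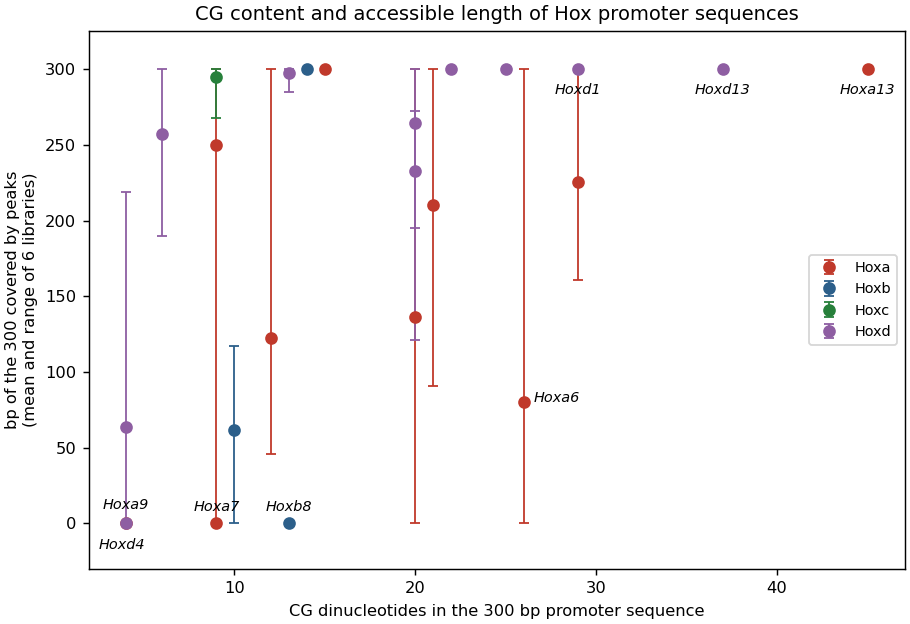
Length covered by peaks of each 300 bp Hox promoter sequence (mean of 6 libraries as a point, lowest and highest as bars) against its number of CG dinucleotides, coloured by cluster. Hoxa13 and Hoxd13, with 45 and 37 CG, are fully covered, those of Hoxa9, Hoxd4, Hoxa7 and Hoxb8 are at 0 bp, and Hoxa6 stands low for its 26 CG.

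Peaks of the 6 libraries were merged where they overlapped, which gave 125 regions in the Hox windows. Of these 98 (78.4%) were called in all 6 libraries, beside 57.1% of 158725 regions in the genome, and 4 (3.2%) in 1 library only, beside 13.6%. Regions at Hox promoters were the longest: 35 overlapped a promoter window, with a median of 1926.8 bp covered, and 33 of them were called in all 6. The 40 regions elsewhere in Hox genes had a median of 718.4 bp, with 29 called in all 6, and the 50 outside Hox genes had 579.5 bp, with 36 called in all 6. Peaks thus also lay at many places outside Hox genes, both between them and in the 20 kb margins, with a shorter median length.

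In each cluster the region with the longest covered length was examined. In Hoxd it lay outside the Hox genes, at chr2:74654719-74659323 in Evx2, a homeobox gene that flanks the cluster, 8902 bp from Hoxd13. Peaks covered 3061, 4604 and 3666 bp of it in S7KO and 3703, 3519 and 3070 bp in WT. In Hoxb it lay over Hoxb5 and the end of Hoxb6 (chr11:96300495-96305194), with 4648, 3751 and 2876 bp in S7KO and 2948, 2417 and 2885 bp in WT. The genotypes overlapped at both. The Hoxc region began at the 5′ end of Hoxc6 (chr15:102997872-103001065) and was the steadiest, with 3111, 3079 and 3078 bp in S7KO and 3114, 3080 and 3111 bp in WT. The Hoxa region lay in Hoxa10 (chr6:52232082-52235250) and had 3153, 2975 and 2990 bp in S7KO and 2845, 1412 and 2875 bp in WT. Over this Hoxa region the covered length was greater in every S7KO library than in every WT library. This was so at 8 of the 125 Hox regions (6.4%), beside 5.41% of all regions, and the reverse at 3 (2.4%), beside 1.13%. At the Hoxa10 promoter window around the outer start the genotypes overlapped, with 1652, 999 and 897 bp in S7KO and 1091, 1067 and 992 bp in WT. They also overlapped at the 300 bp of its inner start in the promoter table, at 52234939, inside this region. Peaks covered 300, 254 and 182 bp of that sequence in S7KO and 254, 91 and 180 bp in WT. Chosen after their values were seen, the regions with the highest fold enrichment lay between genes and were narrow. One at chr11:96234819-96235565, 35765 bp from Hoxb9, had a mean fold enrichment of 7.49 and ranked no lower than 15.2% of any list. Another at chr15:102987146-102987938, 2601 bp from Hoxc8, had 5.49 and ranked no lower than 15.96%.

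Hox clusters also hold microRNAs, which were examined by whether their hairpin lay in a peak. Mir10a and Mir10b, near Hoxb4 and Hoxd4, share a seed, as do the Mir196 genes near Hoxa9, Hoxb9 and Hoxc9. The mature sequences are shown because members of the 196 family with the same seed differed in whether they lay in a peak, with the seed (bases 2 to 8) in capitals.
mmu-miR-10a-5p, Mir10a: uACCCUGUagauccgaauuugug
mmu-miR-10b-5p, Mir10b: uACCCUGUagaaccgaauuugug
mmu-miR-196a-5p, Mir196a-1 and Mir196a-2: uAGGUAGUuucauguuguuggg
mmu-miR-196b-5p, Mir196b: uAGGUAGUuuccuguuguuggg
mmu-miR-615-3p, Mir615: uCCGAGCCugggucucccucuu

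The whole hairpins of Mir196b (85 bp, chr6:52230081-52230165) and of Mir615 in Hoxc5 (65 bp, chr15:103014926-103014990) lay in a peak in all 6 libraries. The hairpins of Mir196a-1 and Mir196a-2 touched no peak in any library, with the nearest 281 to 2222 bp away. The same held for Mir10a and Mir10b, with the nearest peak 340 to 807 bp away. Thus the 196 family, whose targets include Hox mRNAs, had 1 member within accessible sequence and the other two outside it in both genotypes.

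The comparison of S7KO with WT asked whether loss of SIRT7, which removes acetyl groups from histones, altered accessibility at these clusters. Covered length over the 4 windows was 152.8, 144.3 and 146.2 kb in S7KO and 151.3, 115.8 and 143.1 kb in WT. Only WT replicate 2 lay apart, and the groups overlapped. The means were 147.8 kb ± 4.49 in S7KO and 136.7 kb ± 18.6 in WT (SD, n = 3 each). The difference of 11.1 kb was smaller than the WT spread (exact two-sided permutation test, p = 0.4, adjusted p = 1 over 10 measures, where 3 against 3 libraries cannot give less than 0.1). It was 0.58 kb without WT replicate 2.

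Each cluster gave the same picture. In the Hoxa window peaks covered 38, 36.1 and 36.5 kb in S7KO and 39.1, 25.9 and 38.2 kb in WT. The Hoxb window had 48.2, 42.9 and 43.2 kb in S7KO and 44.9, 35.4 and 41.3 kb in WT. In these windows the mean differences of 2.5 and 4.26 kb were smaller than the WT SD (7.38 and 4.77 kb, exact permutation test, p = 1 and 0.4, adjusted p = 1 each). The Hoxc window had 33.1, 30.5 and 31.8 kb in S7KO and 33.8, 26.8 and 31.2 kb in WT. The Hoxd window had 33.5, 34.8 and 34.7 kb in S7KO and 33.6, 27.7 and 32.4 kb in WT. The Hoxc difference of 1.19 kb was smaller than the WT SD of 3.55 kb, and the Hoxd difference of 3.11 kb was about as large as the WT SD of 3.102 kb (exact permutation test, p = 0.8 and 0.2, adjusted p = 1 each). WT replicate 2 was the lowest of the 6 libraries in all 4 windows. Without it the difference became 1.71 kb in Hoxb and 1.35 kb in Hoxd, and changed sign to -1.75 kb in Hoxa and -0.72 kb in Hoxc.

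The number of Hox peaks was 117, 122 and 124 in S7KO and 118, 117 and 127 in WT (121 ± 3.61 and 120.7 ± 5.51, exact permutation test, p = 1, adjusted p = 1). Their median widths averaged 947.2 bp ± 105 for S7KO and 922.3 bp ± 164.9 for WT (exact permutation test, p = 0.9, adjusted p = 1). The number of Hox promoters called was 34 ± 1 in S7KO and 33 ± 1 in WT (exact permutation test, p = 0.5, adjusted p = 1). Peaks covered on average 1138.4 bp ± 51 of a Hox promoter window in S7KO and 1041.4 bp ± 92.4 in WT (exact permutation test, p = 0.2, adjusted p = 1), a difference about as large as the WT SD. As a share of all covered length in the library, which allows in part for depth, the Hox windows held 0.153%, 0.136% and 0.136% in S7KO and 0.15%, 0.142% and 0.134% in WT (0.142% ± 0.00958 and 0.142% ± 0.00844, exact permutation test, p = 1, adjusted p = 1). The genotypes overlapped in all 10 measures. They did not overlap in covered promoter length when only 250 bp either side of the 5′ end were read (28.1 bp more in S7KO, exact permutation test, p = 0.1). Without WT replicate 1 they did not overlap in the covered length of all windows (18.3 kb), of Hoxb (6.43 kb) and of Hoxd (4.29 kb) and in promoter length (135 bp, exact permutation test, p = 0.1 each), where the shallow replicate 2 was 1 of the remaining WT libraries. Since p cannot fall below 0.1 here, no difference of any size could be called with 3 libraries each.

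At single Hox genes, 1 of the 35 promoters called in at least 1 library (2.86%) was covered over a greater length in every S7KO library than in every WT library, beside 5.8% of all such genes. It was Hoxc8, which directs motor neurons of the forelimb, with 659, 723 and 733 bp in S7KO and 600, 546 and 652 bp in WT. Its lowest S7KO value thus stood just above its highest WT value. None was lower in every S7KO library, beside 1.66% of all genes. The mean was larger in S7KO at 27 of the 35 genes, beside 64.9% of all genes, equal at 3 and larger in WT at 5. Without WT replicate 2 it was larger in S7KO at 20 of 35, beside 47.6%, so the direction of many promoters rested on that library. In replicates 1 and 4 alone, which were close in depth between genotypes, it was 21 of 35, beside 45.7%. No region in the Hox windows was present in the 3 S7KO libraries and absent from every WT library, beside 0.416% of all regions, and none the other way round, beside 0.0743%.

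Genes that work with the Hox clusters were also examined. Promoters of all 9 Hox cofactors listed (the Pbx, Meis and Pknox families, whose proteins bind DNA together with Hox proteins) and of all 6 ParaHox genes, a sister cluster of the Hox genes, were called in all 6 libraries. Over all protein-coding genes 72.3% of promoters were called in all 6, beside which each count of protein-coding genes that follows is to be read. No such share was taken over RNA genes. Of 18 Polycomb subunits 17 were called in all 6 and Cbx7 in none. Of 8 Trithorax genes and H3K27 demethylases 6 were called in all 6, Men1 in none, and Kdm6b over 1292, 1255 and 0 bp in S7KO and 1277, 0 and 225 bp in WT. The genotypes overlapped at Kdm6b. Of 9 neighbours of the clusters with a known 5′ end 8 were called in all 6, and Evx2 in 5, with 0, 281 and 278 bp in S7KO and 265, 228 and 324 bp in WT. Of 11 long non-coding RNA genes of the clusters 8 were called in all 6, Hoxaas3 in 4, and Hotair, a transcript of the Hoxc cluster known for its link to Polycomb, and Hoxb5os in none. The promoter of Halr1, an RNA gene outside the Hoxa window, was covered over 1574, 1639 and 1670 bp in S7KO and 1287, 1096 and 1300 bp in WT. It was longer in every S7KO library, as was the Polycomb gene Cbx6, while Cdx2 of the ParaHox genes was shorter in every S7KO library. Cbx6 and Cdx2 stand beside the 5.8% and 1.66% named above, which are shares of protein-coding genes and do not cover Halr1.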

How the data were processed

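ATAC-seq was measured in 6 libraries, and the authors deposited 1 list of broad peaks per library. According to the study's methods and processing notes, reads were trimmed (Trim Galore 0.6.6), aligned to mm10 (Bowtie2 2.4.4.1), filtered for unique reads without duplicates (SAMtools 1.19.2), cleared of mitochondrial reads, shifted for the Tn5 cut and selected by fragment length, and MACS2 (version 2.2.5) served as the peak caller. The methods state a range of fragment lengths that begins above nucleosome-free length, whereas the results speak of peaks on merged nucleosome-free profiles. Which of these made the deposited lists was not settled, and it could change peak widths. The deposited lists give for each peak a display score (not used), a fold enrichment ratio and the −log10 of its p-value and q-value. These were the authors' values and were used only within a list. The largest q in any list was 0.0983.

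Gene spans came from the RefSeq table of GRCm38.p6. Strand was taken from the GENCODE vM39 gene of the same symbol and chromosome, so that 19666 of 21887 protein-coding genes (89.8%) and all 39 Hox genes had a 5′ end. Covered length was the union of peaks in a window, regions were peaks merged over libraries, and the span of the genome was the sum of the largest peak coordinates per chromosome. Relative depth was solved from fold and p of peaks under 300 bp, as the 1st percentile. Genotypes were compared by exact two-sided permutation tests (Benjamini-Hochberg over 10), and Hox with the rest by exact sign-flip tests over 6 libraries, in Python 3.11.15 (numpy 2.4.6, pandas 2.3.3, scipy 1.17.1). The code for covered length and the permutation test was tested on simulated data. Named were all Hox genes not called in all 6 libraries, the 6 with the largest and the 6 with the smallest mean covered length, those whose genotypes did not overlap, the longest region of each cluster and any region called in all 3 libraries of 1 genotype and none of the other (there was none). The other Hox genes are given for completeness except 1, which entered all counts but is not reported here, and Halr1, Cbx6 and Cdx2 were named after their values were seen. The members and gene lists were chosen with earlier results of these data known. Alternatives were a q limit, equal peak numbers, other margins and windows, leaving out libraries, the replicate block and, added after the data were seen, the starts of the RefSeq promoter table.

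As a check of pairing, the deviations of covered promoter length from the genotype mean were correlated between same-numbered S7KO and WT libraries over 19666 genes, which gave 0.081, -0.025 and 0.078 for numbers 1, 2 and 4. Between libraries of unlike number they ran from -0.102 (S7KO 1 with WT 4) to 0.027 (S7KO 2 with WT 4). Over the 39 Hox promoters the same numbers gave 0.293, -0.306 and 0.166, and unlike numbers gave -0.425 to 0.379. No same-number value over all genes exceeds the 0.1 set for pairing, so the main tests did not use the numbers as pairs. The values for numbers 1 and 4 nonetheless lay above every unlike-number value over all genes. Background coverage was also close between genotypes for number 1 (4.72 in S7KO, 4.74 in WT) and number 4 (6.03 and 6.00). For number 2 it was not (5.15 and 2.92). Whether same-numbered libraries share other traits was not tested. Either set of label numbers gives the same pairs.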

Additional observations from a re-analysis of the deposited data

How the results depend on the processing

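Values are S7KO minus WT unless said otherwise. Of 124 alternatives for the 10 genotype measures 20 turned the sign. No p could fall below 0.1 under any of them by construction, so their p-values do not bear on stability. The Hox share of covered length became 0.00341 percentage points with −log10 q of at least 2, 0.00149 with equal peak numbers, 0.0022 in replicates 1 and 4 only and 0.000959 without margins. The number of Hox peaks became -6.67 with equal peak numbers and -2 in replicates 1 and 4 only, where the median width became -9 bp (191.7 bp with equal peak numbers and 116.2 bp without margins), Hoxa -1.38 kb and Hoxc -0.064 kb. Leaving out 1 library gave 0.58 to 18.3 kb for covered length (Hoxa -1.75 to 4.84, Hoxb 1.71 to 6.43, Hoxc -0.724 to 2.79, Hoxd 1.35 to 4.29), -1.5 to 3.5 peaks, -50.8 to 112.7 bp of median width, 0.5 to 1.5 promoters called, 45.5 to 135 bp of promoter length (239.5 bp at 3 kb and 28.1 bp at 250 bp, all libraries) and -0.00596 to 0.00379 percentage points of share. Regions called in all libraries of 1 genotype and none of the other were 0 or 1 in either direction without 1 library, and 1 S7KO region in replicates 1 and 4 only or with margins of 100 kb. The cause of these changes was not tested.

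The excess of the Hox windows over the genome was 17.8 to 18.8 percentage points without 1 library and 18.9 in replicates 1 and 4 only (exact sign-flip test, p = 0.125, the smallest 4 libraries allow). Without 1 library p cannot fall below 0.0625. It was 20.97 without margins and 11.4 with 100 kb. The excess at promoters was 53.2 to 98.4 bp without 1 library, 114.2 bp in replicates 1 and 4 only (exact sign-flip test, p = 0.125), 39.4 bp with equal peak numbers (p = 0.25), -69.7 bp at 250 bp and 746 bp at 3 kb, where windows of neighbouring Hox genes overlap. With the starts of the promoter table it was 144.2 bp. Only the Hox genes were moved to these starts, each at its best covered one, and the median of all genes stayed at the outer 5′ ends. This value therefore sets unlike choices of start side by side.

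With the replicate block, the paired differences in covered length were 1.53, 28.5 and 3.12 kb for numbers 1, 2 and 4 (mean 11.05 kb, exact sign-flip test, p = 0.25, the smallest 3 pairs allow). As no genotype measure could pass, the block could change no call. Depth sets how many weak peaks are listed, and the lists hold no counts, so changes of signal within a peak were not measured.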
